A study of Mus musculus with 6 samples.

Results

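The transcripts of 10 genes linked to the transcription factor ATF4 were followed in ileal epithelium with and without Ogt. The genes were chosen by name, with earlier results of these data known: Atf4 itself, asparagine synthetase (Asns), the 3 enzymes of serine synthesis (Phgdh, Psat1, Psph), the mitochondrial one-carbon enzymes Shmt2 and Mthfd2, and the stress-linked targets Chac1, Trib3 and Ddit3. All 10 were matched by Ensembl ID among 22274 genes in the deposited table, and all 10 were among the 14005 genes with enough counts to be tested. None of the 10 passed the test between the groups at an adjusted p under 0.05, in either direction, where 18.7% of all tested genes passed it. Atf4 came nearest to that threshold, with lower values in knockout libraries. Asns and the serine and one-carbon enzymes stood within 0.18 log2 units of the control level, while Chac1, Trib3 and Ddit3 had 1 or more libraries standing apart within a group.

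ATF4 is the central factor of the integrated stress response. Kinases that sense unfolded proteins, missing amino acids, missing haem or viral RNA phosphorylate the translation factor eIF2alpha, which slows protein synthesis in general while the Atf4 message is translated more, so that ATF4 protein can rise without more Atf4 mRNA. Together with partners of the C/EBP family the protein binds composite elements near genes of amino acid synthesis, amino acid import, tRNA charging and stress output, and mTORC1, the growth complex named in the study's title, is known to raise ATF4 through translation as well. RNA levels alone therefore do not report the amount of ATF4 protein.

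Ileal intestinal epithelial cells were sequenced in 2 groups of 3 libraries. Knockout libraries came from mice with floxed Ogt alleles and Olfm4-CreER, a tamoxifen-inducible recombinase driven by a crypt stem cell gene. Ogt encodes the enzyme that adds O-GlcNAc to nuclear and cytoplasmic proteins. Control libraries are labelled LoxP, with no driver named. The treatment text gives tamoxifen to the offspring of the cross on 3 days in a row at 2 months of age, with collection on day 10, and does not separate the groups. By then, per the labels, Ogt had been lost throughout the knockout ileal epithelium. Ogt RNA stood at 0.322 of the control level in the knockout libraries, so some remained, and its source was not tested. Effects of the recombinase and of losing Ogt cannot be told apart. The labels do not say that libraries came from separate mice. The p-values measure the spread between these libraries, which may be partly technical.

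Library totals ran from 14389429 to 18076486 estimated counts. Ogt stood at 132 ± 7.21 CPM (counts scaled to the TMM-adjusted library total; mean ± SD, n = 3) in control and 42.5 ± 6.26 CPM in knockout libraries, a log2 fold change of -1.63 ± 0.13 (± SE, adjusted p = 0.00121). Of the tested genes 18.7% changed, 9.33% higher and 9.37% lower (edgeR quasi-likelihood test, Benjamini-Hochberg adjusted over all tested genes), which gave 1307 higher and 1312 lower genes, or 2045 and 859 with library size alone. The numbers were 639 and 559 without control 3, 757 and 897 without knockout 1, 601 and 533 without knockout 2, 549 and 460 without knockout 3, and 903 and 780 without control 2. Without control 1 more genes were called in both directions than with all libraries. All 8 enterocyte markers were detected in every library, led by Apoa1 at 4660 FPKM (the deposited unit, scaled for transcript length and library total). The preparation also held markers of other cells, with Igkc of plasma cells at 2329 FPKM, Gzma of lymphocytes at 104 FPKM, Lyz2 of myeloid cells at 104.5 FPKM and Acta2 of smooth muscle at 139 FPKM. Each bulk value thus mixes cell types, and fewer cells of a type cannot be told apart from less RNA per cell.

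The levels of the 10 genes were compared on the FPKM scale, which allows for transcript length. Atf4 was by far the most abundant at 108 FPKM over all 6 libraries (84.35 to 132), a level 5.81 times that of the next gene. Ddit3, which encodes the stress factor CHOP, followed at 18.6 FPKM (10.7 to 39.1). Both stood above the next gene in all 6 libraries, and their ranges did not overlap it. Asns (8.51 FPKM), Shmt2 (6.70), Phgdh (5.88), Psat1 (4.71), Trib3 (4.01) and Mthfd2 (3.57) formed a run in which the range of each overlapped that of the next. Psat1 was above Trib3 in only 3 of 6 libraries, and Trib3 above Mthfd2 in 3 of 6. Psph (2.94 FPKM) and Chac1 (1.49) were the least abundant, and Psph was above Chac1 in all 6 libraries although their ranges met. The enzymes of serine synthesis were thus present at a few FPKM each, far below Atf4.

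**Figure D1:**
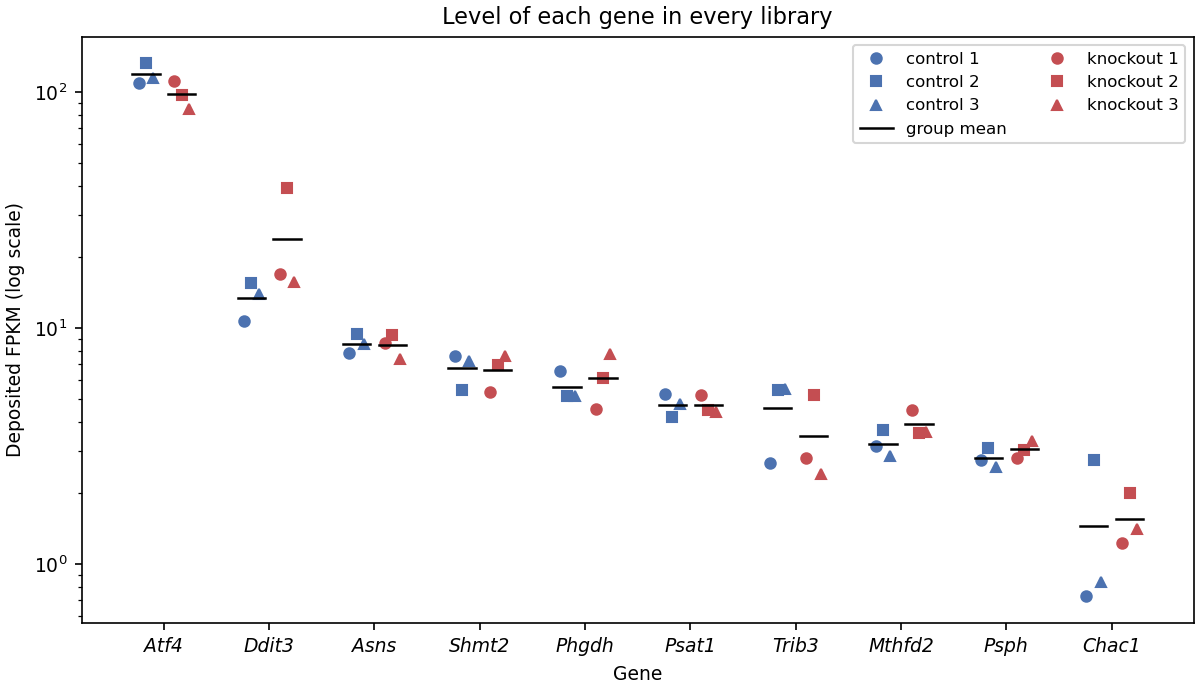
Deposited FPKM of each gene (log axis) in the 3 control libraries (blue) and 3 knockout libraries (red), with a symbol for each library number and a bar at the group mean, ordered by mean level. Atf4 lies above 80 FPKM in every library, and the knockout 2 point of Ddit3 (39.1 FPKM) and the control 2 point of Chac1 (2.76 FPKM) stand away from the others of their groups.

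The promoter windows of the genes were read for the composite element that ATF4 binds with C/EBP partners. RefSeq windows (build GRCm38.p6, from 250 bases before to 50 after the start) were found for all 10 genes, with 11 windows in all. The letters TGATGNAAN, searched on both strands, occurred in 3 of the 10 genes, against 4.50% of the 27025 genes with a window (3.95% of all 32851 windows). The shorter letters TTGCATCA, which overlap that pattern on the other strand, occurred in 1 of the 10, Chac1, against 1.03% of genes (0.89% of windows). The Chac1 and Asns stretches are shown because they carry the match upstream of the start in 2 genes of different role, with the matched letters in capitals, 5′ to 3′ on the strand of the gene.
Asns (chr6:7693210-7693257, minus strand, from 48 to 1 bases before the start): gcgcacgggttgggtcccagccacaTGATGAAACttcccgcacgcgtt
Chac1 (chr2:119351023-119351081, plus strand, from 219 to 161 bases before the start): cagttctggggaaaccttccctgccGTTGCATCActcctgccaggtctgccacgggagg
In Trib3 the match TTTACATCA lay from 14 to 22 bases after the start. A match describes letters and not a bound site, and the other 7 genes had no match within these windows.

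Atf4 was lower in the knockout group by less than the test could call. Its CPM was 193, 242 and 211 in controls 1 to 3 and 191, 159 and 133 in knockouts 1 to 3. The groups did not overlap, but the lowest control and the highest knockout library lay side by side, and on the FPKM scale the groups crossed (109.5 in control 1, 111 in knockout 1). Atf4 was the only one of the 10 genes whose CPM did not overlap between groups, where 39.8% of tested genes did not and 20.2% were lower without overlap. The log2 fold change was -0.42 ± 0.15 (± SE) with a 95% interval from -0.77 to -0.06, an unadjusted p of 0.0259 and an adjusted p of 0.0956. It was the 1 gene of the 10 with an unadjusted p under 0.05, and 27.1% of all tested genes had a smaller p. Over all alternatives run the fold change stayed negative (-0.56 to -0.29), and its adjusted p ran from 0.0567, without knockout 1, to 0.260, without knockout 3.

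The 5 genes outside the list whose log2 CPM ran most like that of Atf4 over the 6 libraries were Wsb1 (Pearson r = 0.9994), Tmem25 (0.9944), Cideb (0.9914), TENT5A (0.9913) and Coro1b (0.9899). Over only 6 libraries, which also share their scaling, such values are a description and carry no test. Wsb1, a ubiquitin ligase subunit, stood at 97.2, 134.5 and 112.5 CPM in controls and 95.8, 72.1 and 56.5 CPM in knockouts. The order of the 6 libraries was the same for Wsb1 as for Atf4. Of the 5, TENT5A passed the test (-0.55 ± 0.16, adjusted p = 0.0452), and the others did not.

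Asns, which makes asparagine from aspartate and glutamine and is a classic ATF4 target, did not pass the test. Its fold change was negative in all 15 alternatives. Its CPM was 15.9, 20.0 and 18.1 in controls and 16.9, 17.8 and 13.5 in knockouts. Knockout 3, the library lowest in Atf4, was also the lowest in Asns, and control 2 the highest in both, while knockout 2 was low in Atf4 and near the control mean in Asns. Deviations from the group means correlated with those of Atf4 at 0.831 for Asns. Over the other genes of the list this value ran from -0.954 (Phgdh) and -0.899 (Shmt2) to 0.884 (Mthfd2), without a test. The log2 fold change of Asns was -0.16 ± 0.16 (95% interval -0.53 to 0.20, adjusted p = 0.506). In folds, that interval runs from 0.694 to 1.15 of the control level.

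The 3 enzymes that turn a glycolytic intermediate into serine showed no change that passed the test. Phgdh, the dehydrogenase of the first step, stood at 12.7, 10.2 and 10.4 CPM in controls and 7.67, 10.6 and 13.5 CPM in knockouts. The knockout libraries held both the lowest and the highest Phgdh value of all 6, so the spread within the group (SD 27.7% of its mean) exceeded the difference between groups. For Phgdh the log2 fold change was -0.06 ± 0.22 (95% interval -0.58 to 0.45, adjusted p = 0.866), and its sign turned with the scaling: 0.079 with library size alone and 0.10 on log2(FPKM + 0.1).

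Psat1, the aminotransferase of the second step, stood at 13.6, 10.97 and 12.9 CPM in controls and 12.9, 10.3 and 9.945 CPM in knockouts. The groups overlapped, with knockout 1 level with control 3. Psat1 differed by a log2 fold change of -0.17 ± 0.17 (95% interval -0.56 to 0.21, adjusted p = 0.504). Psph, the phosphatase that releases serine, kept to a narrow range. It stood at 4.75, 5.40 and 4.59 CPM in controls and 4.84, 5.0 and 5.29 CPM in knockouts. The highest library was 1.18 times the lowest in CPM and 1.29 times in FPKM. The SD of CPM was 8.7% of the mean in controls and 4.54% in knockouts, both below the counting error of 10.9%. For Psph the log2 fold change was 0.04 ± 0.20 (95% interval -0.42 to 0.49, adjusted p = 0.908). Its estimated counts were not whole in 5 of 6 libraries, so some of its reads were shared with a similar sequence and its level is less certain.

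Shmt2 and Mthfd2 act one after the other in mitochondria, where Shmt2 takes a one-carbon unit from serine onto folate and Mthfd2 oxidises the product. Shmt2 stood at 17.8, 13.3 and 17.5 CPM in controls and 12.2, 15.1 and 15.9 CPM in knockouts. Mthfd2 stood at 6.58, 8.12 and 6.36 CPM in controls and 9.33, 7.11 and 6.93 CPM in knockouts. The libraries lowest in Shmt2, knockout 1 and control 2, were the highest in Mthfd2, and the libraries highest in Shmt2, controls 1 and 3, were the lowest in Mthfd2. The pair was described after all pairs of the 10 genes had been seen, as the one that ran most oppositely, and carries no test. This opposite order crossed the groups, within a range of 1.46-fold for Shmt2 and 1.47-fold for Mthfd2 between the extreme libraries. Counting error alone, as the inverse square root of the mean count, amounts to 6.21% for Shmt2 and 8.98% for Mthfd2. Neither gene passed the test: the log2 fold change was -0.17 ± 0.17 for Shmt2 (95% interval -0.57 to 0.23, adjusted p = 0.534). For Mthfd2 it was 0.15 ± 0.20 (95% interval -0.32 to 0.62, adjusted p = 0.648).

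**Figure D2:**
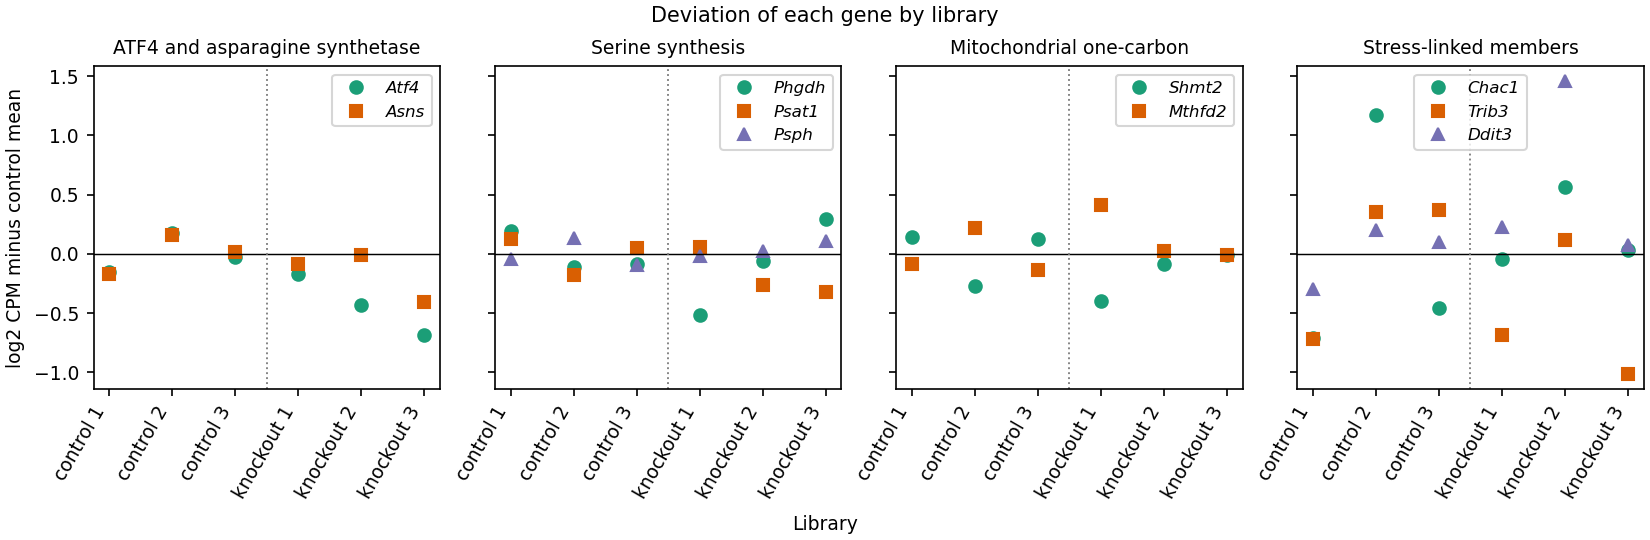
Log2 CPM of each gene minus its control mean, by library, in 4 panels by role, with controls left and knockouts right of the dotted line. Atf4 falls from 0.17 in control 2 to -0.69 in knockout 3, Shmt2 and Mthfd2, a pair picked after its values were seen, run in opposite order, and Chac1 in control 2 (1.17) and Ddit3 in knockout 2 (1.46) are the highest points.

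The estimated variation between libraries of the 3 stress-linked targets ranked at the 88.7 to 96.2 percentile of tested genes, against 39.9 to 61.4 for the other 7. Chac1, which breaks down glutathione, was the sparsest of the 10, with 20 to 79 counts per library. It stood at 1.22, 4.79 and 1.47 CPM in controls and 2.00, 3.11 and 2.12 CPM in knockouts. Control 2 was the highest library and knockout 2 the next, and the other 4 lay between 1.22 and 2.12 CPM. For Chac1 the log2 fold change was -0.04 ± 0.53 (95% interval -1.27 to 1.18, adjusted p = 0.962). Without control 2 it was 0.87 (interval 0.01 to 1.74, adjusted p = 0.166). The sign of so small a value also turned without knockout 1 (0.068) or knockout 3 (0.045). The estimated variation between libraries beyond counting error, 44.7% of the level, was at the 96.2 percentile of the tested genes.

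Trib3, a pseudokinase that restrains ATF4 and CHOP and is induced by both, fell into high and low libraries that did not follow the groups. Its CPM was 5.54, 11.8 and 11.9 in controls and 5.67, 9.999 and 4.50 in knockouts. Controls 2 and 3 and knockout 2 were high, and control 1 and knockouts 1 and 3 were low, with no library in between. For Trib3 the log2 fold change was -0.53 ± 0.39 (95% interval -1.43 to 0.37, adjusted p = 0.372). It moved to -0.94 without knockout 2 (interval -1.83 to -0.05, adjusted p = 0.161) and to -0.77 without control 1 (interval -1.52 to -0.01, adjusted p = 0.128). It moved to -0.31 without knockout 3 (0.663), to -0.33 without control 3 (0.687) and to -0.34 without control 2 (0.655). Trib3 did not pass the test in any of these fits.

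Ddit3 had the largest positive value, and it rested on 1 library. It stood at 9.50, 13.5 and 12.6 CPM in controls and 13.8, 32.4 and 12.4 CPM in knockouts. Knockout 2 stood far above every other library, while knockouts 1 and 3 lay within or just above the control range. The log2 fold change was 0.72 ± 0.38 (95% interval -0.18 to 1.62, adjusted p = 0.230), and without knockout 2 it was 0.14 (interval -0.35 to 0.63, adjusted p = 0.688). Without knockout 3 it was 0.97 (interval 0.09 to 1.85, adjusted p = 0.155).

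Markers of other cells and of handling were set beside these library differences. The 8 T and NK cell markers summed to 213 to 392 CPM in control and 229 to 371 CPM in knockout libraries, none was at 0 in any library, and control 2 and knockout 2, the libraries highest in Chac1, were also the highest in this sum. The 8 Paneth cell markers summed to 235 CPM in control 2 against 1229 to 3214 CPM in the other libraries. Among 12 immediate early and heat shock genes, a list added after the values above were seen, Hspa1a was highest in control 2 (0.92 log2 units over the control mean) and next in knockout 2 (0.50). Hspa1b was highest in knockout 2 (1.03) and next in control 2 (0.48). Other genes of the list ran otherwise: Egr1 (-2.24) and Ier3 (-0.51) were lowest in knockout 2, and Ier2 (0.08) and Btg2 (0.17) were highest in control 1. Of these 12 genes Egr1 (-1.92 ± 0.38) and Jun (-0.80 ± 0.19) fell and none rose, where 9.37% of all tested genes fell and 9.33% rose. The CPM of 4 of the 12 did not overlap between groups, where 39.8% of tested genes did not. The list summed to 660 to 985 CPM in control and 442 to 623 CPM in knockout libraries, with the highest sum in control 2 and the lowest in knockout 3, as for Atf4. The calls of Egr1 (knockout 2 or 3) and Jun (all but control 1) ended when 1 library was left out (adjusted p up to 0.0713 and 0.0943). The part of these markers in the values of Atf4, Chac1, Trib3 and Ddit3 was not tested.

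The intervals show what the 3 libraries per group could resolve. For 7 of the 10 genes the 95% interval lay within a 2-fold change either way: Atf4, Asns, Psat1, Phgdh, Psph, Shmt2 and Mthfd2. For Chac1, Trib3 and Ddit3 it reached past 2-fold, so a change of that size was not excluded: in either direction for Chac1, a fall for Trib3 and a rise for Ddit3. Of the 10 fold changes 3 were positive and 7 negative, with a median of -0.11 against -0.05 over all tested genes. The sign of this median was not stable, since it was 0.025 with library size alone and 0.048 on log2(FPKM + 0.1), settings in which the median of all genes was 0.09 and 0.12. None of the 10 passed with DESeq2 or limma voom either.

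**Figure D3:**
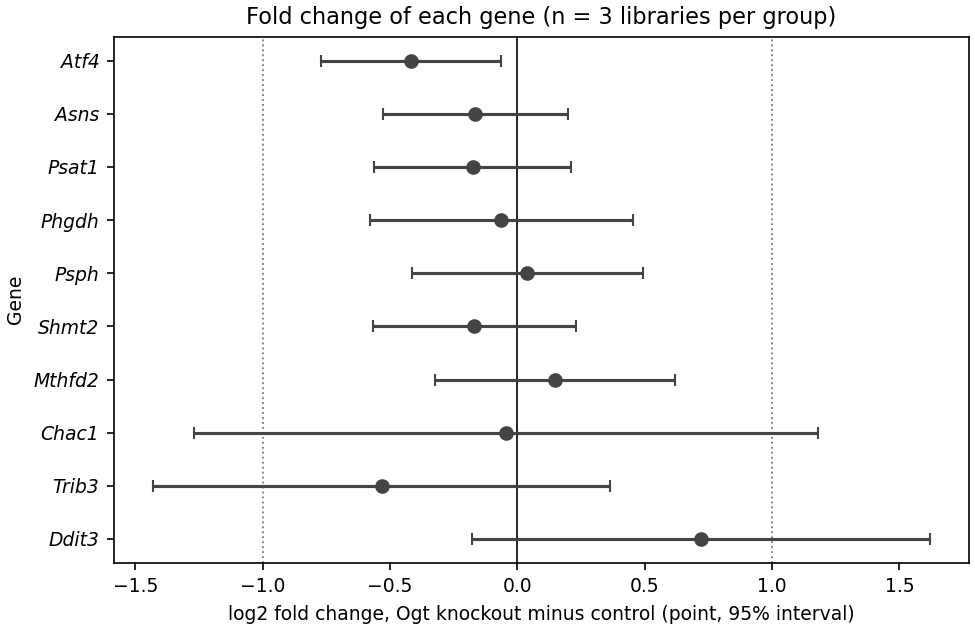
Log2 fold change of each gene, Ogt knockout minus control (point), with its 95% interval from the edgeR fit, for 3 libraries per group. Dotted lines mark a 2-fold change either way: 7 intervals lie between them, those of Chac1, Trib3 and Ddit3 cross them, and the Atf4 interval (-0.77 to -0.06) alone leaves out 0.

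Genes acting before ATF4 were followed next. Of 12 kinases, phosphatase subunits and regulators of eIF2alpha 1 rose and 3 fell (median -0.12), where 18.7% of all tested genes changed. Eif2s1, which encodes eIF2alpha, rose from 69.6 ± 12.3 to 121 ± 9.92 CPM (0.80 ± 0.14, adjusted p = 0.00861). Eif2ak3, the kinase PERK of the endoplasmic reticulum, fell from 64.3 ± 12.8 to 34.2 ± 4.45 CPM (-0.91 ± 0.16, adjusted p = 0.00992). Ppp1r15a, the stress-induced phosphatase subunit GADD34 and itself a target of this response, fell (-0.55 ± 0.14, adjusted p = 0.0323), as did Dele1, the mitochondrial stress relay (-0.62 ± 0.17). The most abundant, Ppp1r15b, stood at -0.14 ± 0.11. The amino acid sensor kinase Eif2ak4, or GCN2, stood at -0.64 ± 0.23 (adjusted p = 0.0929), while Eif2ak1 (-0.10 ± 0.09, with estimated counts not whole in all 6 libraries) and Eif2ak2 (0.28 ± 0.15) did not pass either. Dele1 and these 3 kinases were named after their values were seen. The Dele1 call ended whichever library was left out (adjusted p up to 0.141), and that of Ppp1r15a ended except without knockout 1 (up to 0.117). Of the 12, 1 fell with library size alone or with any library but knockout 1 left out, and 2 rose without control 1 or with library size alone.

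Factors that pair with or follow ATF4 and its other targets were mostly without a call, as were most tested genes. Across all 14005 tested genes, 9.33% rose and 9.37% fell. Of 11 partner and regulator factors 1 fell and none rose, with a median of -0.24. Nfe2l2, the oxidative stress factor NRF2 and the most abundant, stood at -0.40 ± 0.12 (adjusted p = 0.0515). Of these factors 0 fell without knockout 3 and 2 without control 1. Of 11 tested targets in stress output Tnfrsf10b, a death receptor gene known as a target of CHOP and of p53, rose from 4.67 ± 1.58 to 12.4 ± 2.73 CPM (1.41 ± 0.28, adjusted p = 0.0136), and none fell. Vegfa, the most abundant, stood at -0.32 ± 0.21. Without control 1, 2 of these rose and 1 fell. Of 8 amino acid transporters known as ATF4 targets none passed, 1 at an unadjusted p under 0.05, and the most abundant, Slc3a2, stood at 0.18 ± 0.25. There 1 transporter rose with DESeq2, with library size alone, or without control 1 or knockout 2, and 0 with limma voom.

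The wider enzymes around serine, folate and methionine were called at shares to be read against the 18.7% of all tested genes, higher and lower together. Of 18 tested one-carbon genes 2 fell and none rose, among them Gcsh, a glycine cleavage subunit (-0.86 ± 0.16), with Dld, the most abundant, at -0.06 ± 0.13. Of 15 methionine and glutathione genes 1 rose and 3 fell. Mtrr, which reactivates methionine synthase, rose (0.998 ± 0.19), while Gclm, a subunit of the enzyme that starts glutathione synthesis (-0.67 ± 0.12), Mat2b (-0.40 ± 0.09) and the most abundant, Ggt1 (-0.91 ± 0.23), fell. Of 19 enzymes of other amino acids 4 rose and 2 fell, with Srr, serine racemase (0.60 ± 0.12), and Asl (0.55 ± 0.12) up and Oat, the most abundant (-0.51 ± 0.14), down. The estimated counts of Srr were not whole in any of the 6 libraries, so its split from similar sequence is uncertain. Among these named genes only Gclm kept its call in each fit with 1 library left out. The call ended for Gcsh and Mtrr (knockout 3), Srr (knockout 2), Asl (control 3 or knockout 2 or 3) and Mat2b (control 2 or 3 or knockout 2 or 3), and for Ggt1 and Oat with all but control 1, with adjusted p up to 0.134. The one-carbon list had 1 lower gene whichever library was left out, 2 higher without control 1, and 2 higher and 1 lower with library size alone. In the methionine list the lower genes were 1 without control 2 or 3 or knockout 2 or 3, and the higher genes were 2 without control 1 or 2 and 0 without knockout 3. In the list of other amino acids the higher genes were 2 without control 2, 1 without control 3, 0 without knockout 2 and 1 without knockout 3, and the lower genes were 0 with any library but control 1 left out or with library size alone.

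Counts of increases in 3 further lists stand beside 9.33% of all tested genes that rose. Of 11 cytosolic tRNA synthetases known as ATF4 targets 5 rose and none fell (median 0.41), and their summed level went from 585 to 598 CPM in control to 755 to 864 CPM in knockout libraries. Wars1 rose from 63.5 ± 9.62 to 130 ± 6.69 CPM (1.03 ± 0.13), and Sars1, the seryl-tRNA synthetase, from 67.9 ± 3.57 to 109.5 ± 13.3 CPM (0.69 ± 0.11). Eprs1 (0.46 ± 0.10) and the most abundant, Gars1 (0.48 ± 0.12), rose as well. Of 20 genes of folding in the endoplasmic reticulum 6 rose and none fell (median 0.32), with Sdf2l1 (1.16 ± 0.17), Dnajb11 (0.73 ± 0.13) and Creld2 (1.11 ± 0.20) first and the most abundant, Hsp90b1, at 0.12 ± 0.14. Of 8 mitochondrial chaperones and proteases 3 rose: Lonp1, from 36.3 ± 2.57 to 101 ± 5.61 CPM (1.48 ± 0.10), Clpx (0.72 ± 0.10) and Trap1 (0.47 ± 0.10), while Hspd1 stood at 0.21 ± 0.18. Whether these lists differ from the 10 genes was not tested. The synthetases that rose numbered 3 without control 3 or knockout 1 and 2 without knockout 2, and the folding genes 3 without control 3 or knockout 1 or 2. Calls that ended were those of Eprs1 (knockout 2 or 3), Gars1 (control 2 or 3 or knockout 1 or 2) and Trap1 (control 3 or knockout 2 or 3), with adjusted p up to 0.0988. Among the cell markers, the 8 tuft cell genes all fell (113 to 121 against 19.6 to 27.6 summed CPM). Of all tested genes 9.37% fell. Of 8 enterocyte markers 4 fell and 2 had positive fold changes. Their sums overlapped between groups (20500 to 29240 against 17110 to 20600 CPM). Their mean log2 CPM relative to the control mean did not (-0.054 to 0.047 in controls, -0.668 to -0.555 in knockouts). That of the enteroendocrine markers did not overlap either, and was higher in knockouts (-0.226 to 0.216 against 0.35 to 0.599). Of 8 goblet markers 2 fell, 1 marker each rose for proliferation, T and NK cells and stroma, and none passed for Paneth, enteroendocrine, stem, B and plasma, or myeloid cells. The part of these markers in the list values was not tested.

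**Figure D4:**
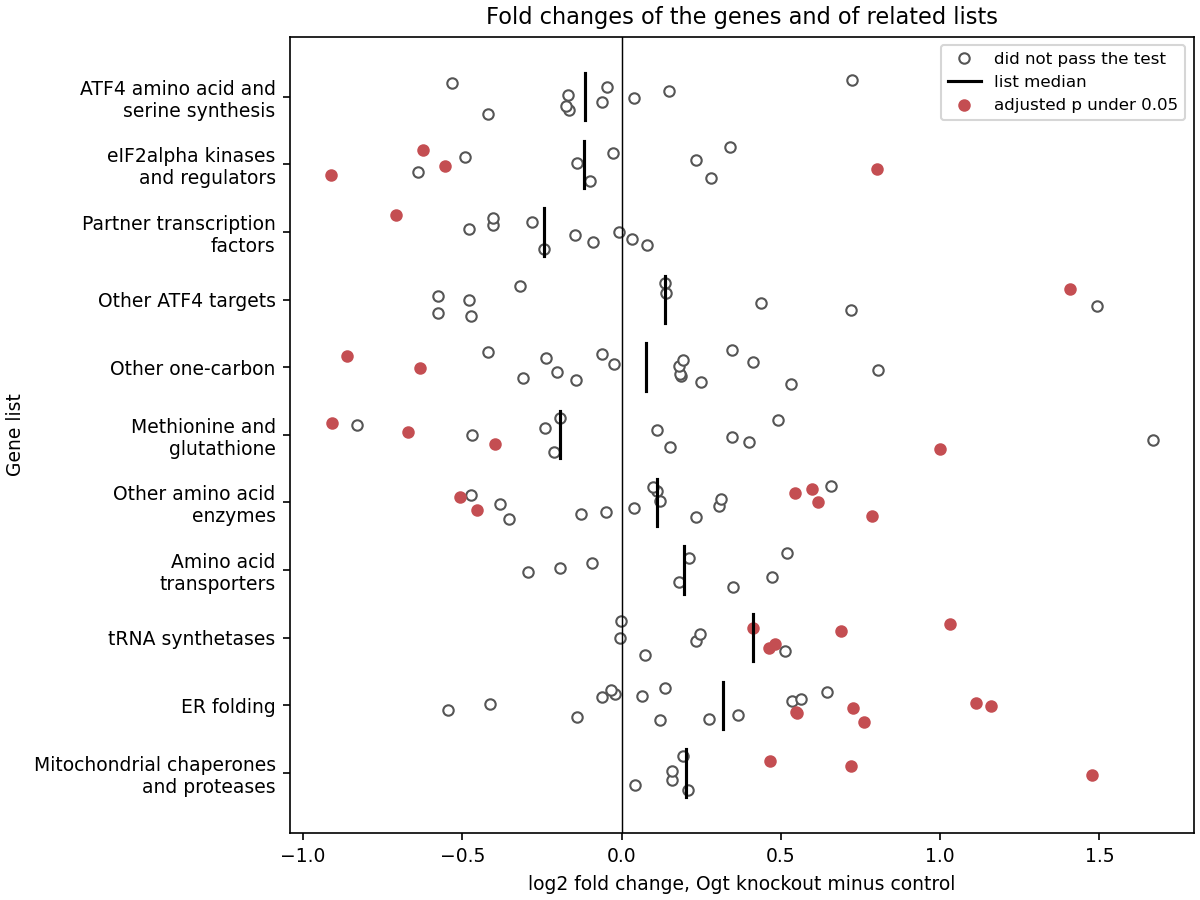
Log2 fold changes (Ogt knockout minus control) of the 10 genes and of the tested genes in 10 related lists, one point per gene, filled where the adjusted p was under 0.05, with a bar at each list median. No point of the top row is filled, while 5 of 11 tRNA synthetases and 6 of 20 folding genes are filled on the right.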

How the data were processed

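The authors deposited 1 table with estimated counts (expected counts) and FPKM per gene and library, per the file headers; the deposited FPKM already allow for length and depth. Libraries were made with a NEBNext Ultra RNA kit, per the labels' protocols; use of strand in counting is not stated. The submitters' processing notes name GRCm39 and mm39. For aligner, counter and annotation, no name was given in the sources used here. Of the estimated counts 7.68% to 8.09% per library were not whole (tolerance 0.001).

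Counts were rounded, genes kept with filterByExpr of edgeR (minimum count 10, minimum total 15), libraries scaled with TMM factors and groups compared by its quasi-likelihood F test, dispersions fitted robustly (edgeR 4.0.16, R 4.3.3), Benjamini-Hochberg adjusted over 14005 genes with a threshold of 0.05. SEs come from the F statistic and 95% intervals from the t distribution with each gene's total degrees of freedom. The code was tested on simulated data. With TMM scaling 3 counts correspond to 0.159 to 0.207 CPM, and intervals of fold changes cover the spread between libraries. No 2 libraries of a group agreed within sampling noise (mean chi-square per gene at least 20.3, against 1 for sampling alone).

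The 10 genes and all gene lists were chosen with earlier results of these data known. Of the list symbols 1 had no match and 7 were matched through GENCODE M21 names. Named by rule were all 10 genes, Ogt, per related list up to 3 called genes of smallest adjusted p and the most abundant one, the most abundant marker of cell types, and the 5 genes most like Atf4 by Pearson r of log2 CPM (prior count 2, mean log2 CPM at least 1). Some genes the rule named are not reported here. Of the cell types only those with a bearing on the text are described. Egr1, Jun, Hspa1a, Hspa1b, Ier2, Ier3, Btg2, Dele1 and the kinases were added after their values were seen. The alternatives changed the scaling (size factors of DESeq2, or library size alone), the tool (DESeq2 1.42.0, or limma voom with limma 3.58.1) and the filter (none, or 1 CPM in 3 libraries). Others added a replicate block, omitted each library in turn, or tested log2(FPKM + 0.1) or log2(FPKM + 1) with limma where 3 libraries reached 1 FPKM.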

Additional observations from a re-analysis of the deposited data

How the results depend on the processing

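Over 15 alternatives none of the 10 genes passed the test in any fit, and 137 of their 150 recomputed fold changes kept their sign. Phgdh turned positive with library size alone (0.079), on log2(FPKM + 0.1) (0.099) and log2(FPKM + 1) (0.088), and without control 1 (0.094) or knockout 1 (0.12), with -0.278 to 0.12 over libraries left out. Chac1 turned positive with library size alone (0.099), limma voom (0.21), the replicate block (0.14), log2(FPKM + 0.1) (0.30) and log2(FPKM + 1) (0.14), and without control 2 (0.87), knockout 1 (0.068) or knockout 3 (0.045), with -0.322 to 0.873 over libraries left out. Without control 2 the alternative removes the library of highest Chac1; otherwise the cause was not tested. The median of the 10 was 0.048 on log2(FPKM + 0.1) and 0.043 on log2(FPKM + 1), and -0.17 to -0.03 with 1 library left out. Ogt stayed between -1.74 and -1.39.

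Over all genes, library size alone gave 2045 higher and 859 lower genes, and the FPKM fits gave 712 and 726 lower. With 1 library left out 549 to 1932 genes were higher and 460 to 1372 lower, from fewer samples, with the most in both directions without control 1. With the replicate block 1728 were higher and 1674 lower, and none of the 10 genes was called. Same-numbered libraries deviated together with correlations of 0.274, 0.253 and 0.084 over genes, a hint from the data and not the design. Each library correlated best with its own number, but control 3 almost as well with knockout 2 (0.068). Of 660 recomputed list counts 539 were within 1.5 times the count reported. Chac1 had the fewest counts of the 10 genes, 20 to 79 per library. Its counting error was 15.5%, beside an estimated variation between libraries of 44.7%.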
